A study of Mus musculus with 21 samples.

Results

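Common myeloid progenitors sorted whole (bulk CMPs) were set against the same gate divided by the surface protein CD62L. All 9 CMP libraries among the 21 of the series were used, chosen by their labels: 3 of bulk CMPs, 3 of CD62L-high CMPs and 3 of CD62L-low CMPs, which the paper names CD62L-neg. Cells came from the bone marrow of C57/B6 mice aged 8 to 12 weeks, and the labels name no transgene, deletion or treatment for any group. The CMP gate was Lin-, SCA-1-, C-KIT+, CD16/32- and CD34+. The question was which genes stood higher or lower in bulk CMPs than in both fractions, since a mixture of these 2 fractions alone lies between them. The gate also holds cells of intermediate CD62L, which were not analysed here for CMPs, so gene levels in those cells are unknown. No source says whether libraries of a group came from separate mice, so p-values describe the spread among these libraries alone, and that spread may be a technical one. In bulk samples, fewer cells of a type and less RNA per cell cannot be told apart.

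CMPs give rise to granulocyte-monocyte progenitors (GMPs) on one side and to megakaryocyte and erythroid progenitors on the other. Many genes described here are immediate early genes, which are transcribed soon after a growth factor, cytokine or stress signal without the need for new protein. Their products include transcription factors of the AP-1, EGR and NR4A families and proteins that end the signal, such as DUSP phosphatases. NF-kappaB is a family of transcription factors held inactive by IkappaB proteins, and it switches on cytokine genes together with genes of its own inhibitors.

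The libraries differed in depth and composition. Total counts were 6145834 to 7262055 in bulk CMPs, 11683991 to 14650082 in CD62L-high CMPs and 7062317 to 7509818 in CD62L-low CMPs. Of the counts of bulk CMP replicate 2, 61.0% fell on 3 gene models (Gm42418, Gm26917 and Gm23935), and 30.7%, or 1888499, on protein-coding genes. Bulk CMP replicates 1 and 3 differed little (chi-square per degree of freedom 5.98), whereas replicate 2 differed from them with values of 171 and 177. The paper dropped a bulk CMP sample because few of its reads mapped, without naming it, and whether it is this library is not known. The main counts below are therefore repeated without bulk CMP replicate 2.

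Genes of the sort were checked against the gate. CPM are counts scaled to library size after trimmed-mean adjustment of the 9 libraries. Kit, the stem cell factor receptor, had 298, 357 and 298 CPM in bulk CMPs, 195 to 235 CPM in CD62L-high CMPs and 370 to 420 CPM in CD62L-low CMPs. Cd34 had 302, 439 and 352 CPM in bulk CMPs, 372 to 398 CPM in CD62L-high CMPs and 47 to 137 CPM in CD62L-low CMPs. CD62L-low CMPs were lowest for Cd34, and all bulk CMP libraries lay between the fractions for Kit. Fcgr3, which encodes a part of the CD16/32 epitope, was low in all 9 libraries, with 7.36, 6.96 and 9.34 CPM in bulk CMPs, 13.8 to 15.5 CPM in CD62L-high CMPs and 6.51 to 8.85 CPM in CD62L-low CMPs.

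Bulk CMPs were higher than both fractions in 38 genes and lower in 4. A gene was called at a Benjamini-Hochberg adjusted p under 0.05 with a fold change over 2 in edgeR's quasi-likelihood test, and it was counted when called in the same direction against each fraction. Of 12823 genes tested these are 0.296% and 0.0312%. Against CD62L-high CMPs alone, 362 genes were higher (2.82%) and 69 lower (0.538%). Against CD62L-low CMPs alone, 493 were higher (3.84%) and 236 lower (1.84%). Both comparisons use the same bulk CMP libraries. At an unadjusted p under 0.05 against both fractions, 340 genes were higher (2.65%) and 182 lower (1.42%). The smaller of a gene's log2 differences ran from 1.04 to 4.83 over the 38 genes with a median of 1.33, a fold of 2.51. All 3 bulk CMP libraries lay above all 6 fraction libraries for each of the 38, which their choice nearly fixes, and for 3.49% of all genes tested. CD62L-low CMPs were the nearer fraction for 22 of them and CD62L-high CMPs for 16. Between the fractions, 699 genes were higher in CD62L-high than in CD62L-low CMPs (5.45%) and 735 lower (5.73%), and 2 and 4 of the 38 were among them. The members just inside the threshold were Arl5b, Camk2a, Ccl4 and Gm11335, with larger adjusted p-values of 0.0401 to 0.047, and just outside lay Litaf (0.0564), Pim3 (0.0574), Hspa1b (0.0587) and Clec4e (0.0591).

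**Figure D1:**
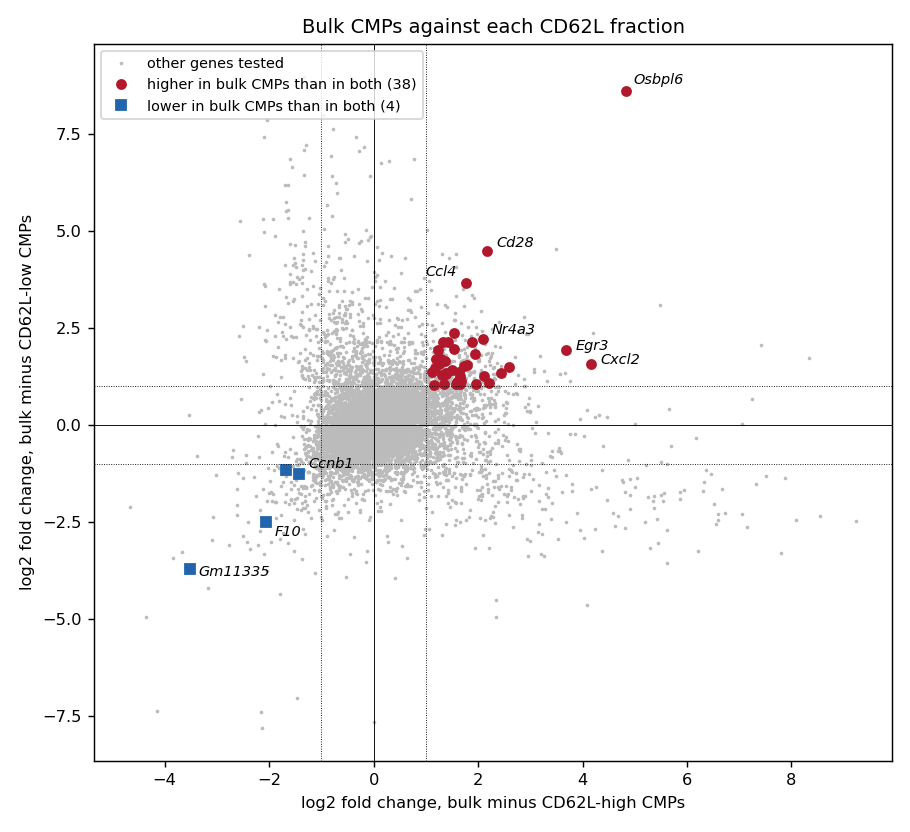
Log2 fold change of each of 12823 genes, bulk minus CD62L-high CMPs on the horizontal axis and bulk minus CD62L-low CMPs on the vertical axis, with dotted lines at a fold of 2. The 38 genes higher than both fractions (red circles) lie in the upper right and the 4 lower genes (blue squares) in the lower left.

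Without bulk CMP replicate 2, 37 genes were higher than both fractions (0.278% of 13325 tested) and 11 lower (0.0826%), of which 26 and 2 were also called with all libraries. Then 442 genes were higher (3.32%) and 143 lower (1.07%) against CD62L-high CMPs, and 560 higher (4.2%) and 328 lower (2.46%) against CD62L-low CMPs. Between CD62L-high and CD62L-low CMPs 879 were higher (6.6%) and 976 lower (7.32%). Both remaining bulk CMP libraries lay above all 6 fraction libraries for all 38 genes, which their separation with all libraries nearly fixes. The median smaller log2 difference of the 38 was then 1.09. The 12 genes that lost the call were Arl5b, Camk2a, Csrnp1, Dusp2, Fosl2, Gm45221, Marcksl1, Mnt, Smad7, Spry1, Zc3h12a and Zfp36. Replicate 2 was the highest bulk CMP library for 28 of the 38 genes and the lowest for 7. Its median log2 distance from the other bulk CMP libraries was 0.73 over these genes, against -0.04 over all genes tested.

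Among the 42 genes, 8 kept their call under 17 other settings: another scaling, DESeq2, limma voom, 2 filters, coding genes only, the 3 gene models left out, a replicate block, and each of the 9 libraries left out in turn. They were Nr4a3, Tnf, Nfkbiz, Cdkn1a, Pde4b, Zbtb10 and Rnf19b among the higher genes and Ccnb1 among the lower. The stricter test against a fold of 1.5, given at the end, was not among the 17. Ccnb1 lost its call in it, and not all of these higher genes kept theirs. For single genes below, lost calls are given for libraries left out. The replicate block also removed 11 of the 38 higher calls, among them Zfp36, Cxcl2, Ccl4, Vegfa, Cd28 and Osbpl6. Limma voom removed 11 as well, Zfp36, Dusp2 and Fosl2 among them. Of the 4 lower calls each setting kept 2, and F10 was lost under the block and Kpna2 under limma voom. Osbpl6 also lost its call under a filter, and Gm11335 kept its call in 3 of the 17.

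Genes of NR4A nuclear receptors, EGR3 and ATF3 were among the called transcription factors of the immediate early class. Nr4a3 (mm10 chr4:48045153-48086447, plus strand) had 25.2, 42.7 and 27.5 CPM in bulk CMPs, against 7.27, 7.19 and 7.69 CPM in CD62L-high CMPs and 3.98, 8.85 and 7.61 CPM in CD62L-low CMPs. The lowest bulk CMP library stood above every fraction library, and the fractions overlapped each other. Its log2 differences were 2.09 ± 0.32 from CD62L-high CMPs (adjusted p = 0.00256) and 2.21 ± 0.32 from CD62L-low CMPs (adjusted p = 0.0014), each ± SE with 3 libraries a group. Nr4a1, which encodes the related receptor NUR77, had 350, 805 and 367 CPM in bulk CMPs, against 104, 171 and 179 CPM in CD62L-high CMPs and 187, 198 and 142 CPM in CD62L-low CMPs. Its differences were 1.74 ± 0.32 from CD62L-high CMPs (adjusted p = 0.00914) and 1.53 ± 0.32 from CD62L-low CMPs (adjusted p = 0.0134), and without replicate 2, its highest library, they were 1.25 and 1.03. The call was lost without CD62L-high CMP replicate 1 or CD62L-low CMP replicate 2 or 3. Nr4a2, a further member of the family, had 30.1, 43.9 and 34.8 CPM in bulk CMPs, 11.4 to 25.1 CPM in CD62L-high CMPs and 17.8 to 23.6 CPM in CD62L-low CMPs and passed neither test (adjusted p = 0.102 and 0.104).

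Egr3 was near silent in CD62L-high CMPs. It had 17.5, 41.2 and 16.7 CPM in bulk CMPs, against 0.704, 3.5 and 1.46 CPM in CD62L-high CMPs and 5.54, 7.31 and 6.52 CPM in CD62L-low CMPs. Its differences were 3.69 ± 0.54 from CD62L-high CMPs (adjusted p = 0.00218) and 1.94 ± 0.50 from CD62L-low CMPs (adjusted p = 0.0369), the first of them 4.47 without CD62L-high CMP replicate 2, and it lost its call without CD62L-high CMP replicate 3 or any 1 CD62L-low CMP library. Egr1, another EGR factor, had 306, 634 and 339 CPM in bulk CMPs, 28.9 to 60.5 CPM in CD62L-high CMPs and 331 to 476 CPM in CD62L-low CMPs, so bulk CMPs overlapped CD62L-low CMPs and exceeded CD62L-high CMPs only. Atf3, a bZIP factor of the stress response, had 125, 48.1 and 122 CPM in bulk CMPs, against 28.5, 34.3 and 41.6 CPM in CD62L-high CMPs and 29.8, 40.1 and 42.2 CPM in CD62L-low CMPs. Here replicate 2 was the lowest bulk CMP library, just above the fractions. The differences were 1.51 ± 0.31 from CD62L-high CMPs (adjusted p = 0.016) and 1.41 ± 0.31 from CD62L-low CMPs (adjusted p = 0.0173) with all libraries and 1.83 and 1.73 without replicate 2, and the call was lost without bulk CMP replicate 1 or 3, CD62L-high CMP replicate 1 or 2 or any 1 CD62L-low CMP library.

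**Figure D2:**
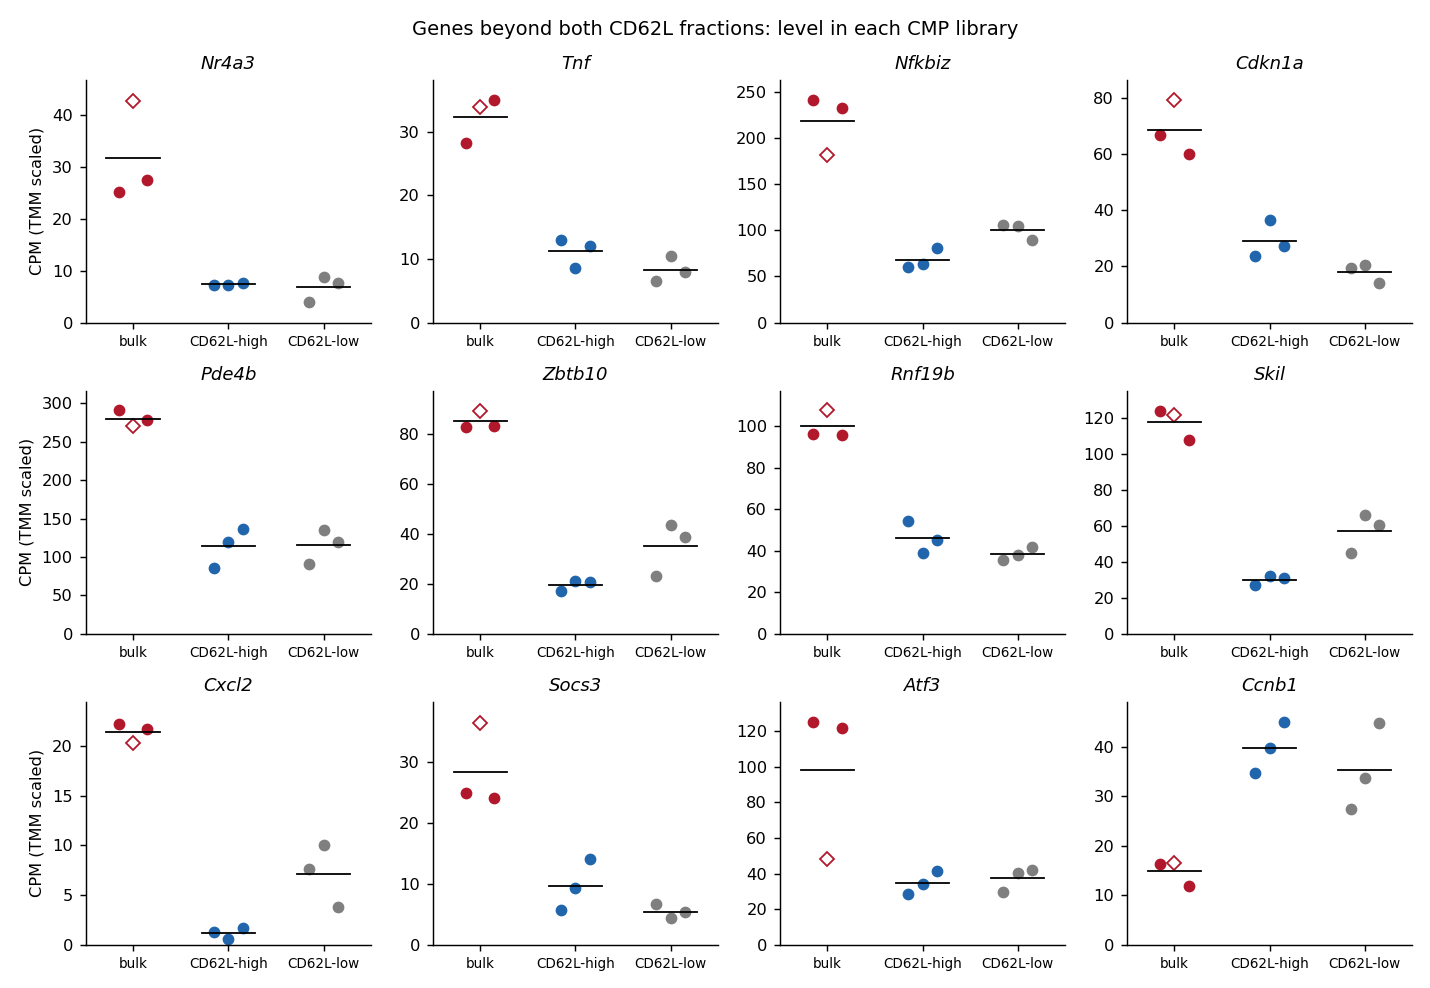
CPM of 12 genes in each CMP library by group (bulk, CD62L-high, CD62L-low). Points are libraries, bars are means of 3 libraries and the open diamond is bulk CMP replicate 2. All bulk CMP libraries lie above both fractions for 11 genes and below them for Ccnb1, where the highest bulk CMP library has 16.6 CPM.

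Socs3, Dusp5 and Zfp36, whose products damp cytokine or MAP kinase signals, were called higher, whereas Dusp1, another phosphatase gene of this kind, was not. Dusp1 stood at 1.46 ± 0.25 from CD62L-high CMPs (adjusted p = 0.00557) and at -0.28 ± 0.25 from CD62L-low CMPs (adjusted p = 0.562), or 1.07 and -0.67 without replicate 2 (adjusted p = 2.7e-06 and 0.000558). Socs3, the feedback inhibitor of JAK-STAT signalling, had 24.8, 36.3 and 24.1 CPM in bulk CMPs, against 5.71, 9.31 and 14 CPM in CD62L-high CMPs and 6.63, 4.36 and 5.3 CPM in CD62L-low CMPs. Its differences were 1.54 ± 0.33 from CD62L-high CMPs (adjusted p = 0.0212) and 2.37 ± 0.36 from CD62L-low CMPs (adjusted p = 0.00157), and the call was lost without CD62L-high CMP replicate 1 or 2. Dusp5, encoding a nuclear phosphatase of ERK, had 153, 272 and 165 CPM in bulk CMPs, against 62.2, 71.4 and 84.5 CPM in CD62L-high CMPs and 50.8, 52.7 and 30.3 CPM in CD62L-low CMPs. Its differences were 1.43 ± 0.26 from CD62L-high CMPs (adjusted p = 0.00855) and 2.14 ± 0.27 from CD62L-low CMPs (adjusted p = 0.00059), and the call was lost without CD62L-high CMP replicate 1 or 2. Zfp36 encodes tristetraprolin, which speeds the decay of cytokine mRNAs. It had 772, 2510 and 747 CPM in bulk CMPs, against 371, 387 and 412 CPM in CD62L-high CMPs and 516, 490 and 376 CPM in CD62L-low CMPs, with replicate 2 far above the other bulk CMP libraries. Without replicate 2 its log2 differences were 0.97 and 0.72, under the fold asked for, and its call was also lost without any 1 fraction library.

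The list of immediate early genes, like the other gene lists below, was chosen with earlier results of these data known. The shares given for these lists are thus descriptive. Of 27 immediate early genes tested, 8 were higher than both fractions, against 0.296% of all genes: Atf3, Dusp2, Egr3, Fosl2, Nr4a1, Nr4a3, Socs3 and Zfp36. Without replicate 2 the number was 5, against 0.278% of all genes. None was lower with edgeR, at an unadjusted p under 0.05 (0 genes) or with DESeq2 (0 genes). Against CD62L-high CMPs 20 were higher (2.82% of all genes), and against CD62L-low CMPs 9 (3.84%). The median log2 difference was 1.54 from CD62L-high CMPs and 0.83 from CD62L-low CMPs, against 0 and 0 over all genes tested. All bulk CMP libraries lay above all fraction libraries for 16 of the 27, against 3.49% of all genes, and for 17 without replicate 2, against 6.42%. The abundant members Jun and Fos did not lie beyond both fractions. Jun, encoding an AP-1 subunit, had 2010, 1320 and 1960 CPM in bulk CMPs, 603 to 789 CPM in CD62L-high CMPs and 2130 to 3010 CPM in CD62L-low CMPs. Fos, its partner, had 611, 733 and 641 CPM in bulk CMPs, 618 to 651 CPM in CD62L-high CMPs and 490 to 611 CPM in CD62L-low CMPs, and passed neither test (adjusted p = 0.867 and 0.411). The summed level of the list was 8600, 12800 and 8440 CPM in bulk CMPs, 3610 to 4280 CPM in CD62L-high CMPs and 7250 to 9250 CPM in CD62L-low CMPs, which overlapped CD62L-low CMPs.

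**Figure D3:**
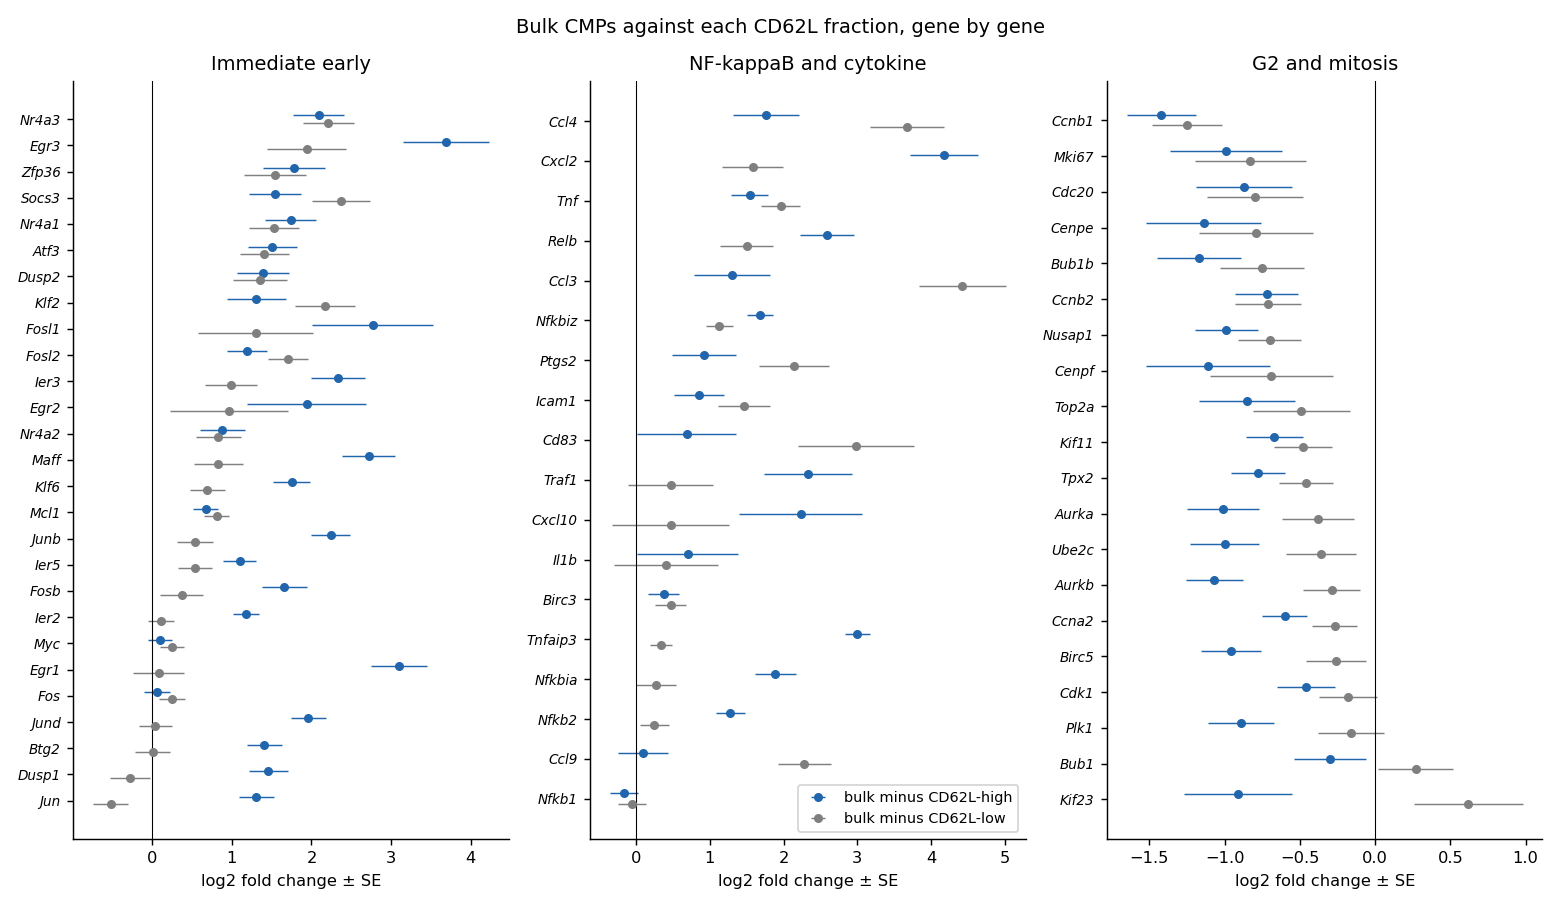
Log2 fold change of bulk CMPs minus CD62L-high CMPs (blue) and minus CD62L-low CMPs (grey), with SE bars, for each tested gene of 3 lists. Nr4a3 is far from 0 in both comparisons (2.09 and 2.21), Jun lies on opposite sides of 0 (1.31 and -0.52), and Ccnb1 has -1.42 and -1.25 among the genes of G2 and mitosis.

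NF-kappaB response and cytokine genes formed the other large group. Tnf (chr17:35199381-35202007, minus strand), encoding tumour necrosis factor, had 28.2, 33.9 and 34.9 CPM in bulk CMPs, against 13, 8.5 and 12 CPM in CD62L-high CMPs and 6.51, 10.4 and 8.01 CPM in CD62L-low CMPs. Its differences were 1.54 ± 0.25 from CD62L-high CMPs (adjusted p = 0.00421) and 1.96 ± 0.26 from CD62L-low CMPs (adjusted p = 0.000816). Nfkbiz (chr16:55811375-55838899, minus strand), whose product is a nuclear IkappaB protein, had 242, 182 and 233 CPM in bulk CMPs, against 60.6, 63.6 and 80.9 CPM in CD62L-high CMPs and 106, 105 and 89.9 CPM in CD62L-low CMPs, with differences of 1.68 ± 0.18 from CD62L-high CMPs (adjusted p = 0.000271) and 1.13 ± 0.18 from CD62L-low CMPs (adjusted p = 0.00235). For both genes the bulk CMP libraries did not overlap either fraction, and without replicate 2 the differences were 1.51 and 1.93 for Tnf and 1.80 and 1.24 for Nfkbiz.

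Subunit genes were split. Relb had 19.8, 31.2 and 20.8 CPM in bulk CMPs, 2.38 to 5 CPM in CD62L-high CMPs and 5.54 to 10.6 CPM in CD62L-low CMPs. Its differences were 2.59 ± 0.37 from CD62L-high CMPs (adjusted p = 0.00176) and 1.5 ± 0.36 from CD62L-low CMPs (adjusted p = 0.0243), and the call was lost without any 1 CD62L-low CMP library. Rel, encoding c-Rel and named after its values were seen, had 116, 204 and 116 CPM in bulk CMPs, 52.5 to 63.8 CPM in CD62L-high CMPs and 24.5 to 37.1 CPM in CD62L-low CMPs, and lost its call without CD62L-high CMP replicate 1 or 2. Bcl3, whose product is an IkappaB protein that acts in the nucleus, had 13.2, 37.5 and 11.7 CPM in bulk CMPs, 4.39 to 6.57 CPM in CD62L-high CMPs and 4.75 to 6.63 CPM in CD62L-low CMPs. Its differences were 1.95 ± 0.43 from CD62L-high CMPs (adjusted p = 0.0239) and 1.83 ± 0.44 from CD62L-low CMPs (adjusted p = 0.0262), or 1.25 and 1.12 without replicate 2, its highest library, and the call was lost without any 1 CD62L-high CMP library or any 1 CD62L-low CMP library. Nfkb1, encoding the p105 precursor of p50, had 166, 109 and 164 CPM in bulk CMPs, 147 to 175 CPM in CD62L-high CMPs and 143 to 169 CPM in CD62L-low CMPs, and passed neither test (adjusted p = 0.669 and 0.903).

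The chemokine genes stood farther from one fraction than from the other. Cxcl2, which encodes an attractant of neutrophils, had 22.2, 20.3 and 21.7 CPM in bulk CMPs, against 1.25, 0.563 and 1.71 CPM in CD62L-high CMPs and 7.59, 10 and 3.8 CPM in CD62L-low CMPs. Its differences were 4.17 ± 0.46 from CD62L-high CMPs (adjusted p = 0.000303) and 1.58 ± 0.41 from CD62L-low CMPs (adjusted p = 0.0348), and the call was lost without bulk CMP replicate 1 or 3, CD62L-high CMP replicate 1 or any 1 CD62L-low CMP library. Ccl4, encoding a chemokine of the CC class, had 114, 339 and 117 CPM in bulk CMPs, against 44.3, 50.5 and 72.2 CPM in CD62L-high CMPs and 24, 12.7 and 7.61 CPM in CD62L-low CMPs. Its differences were 1.76 ± 0.45 from CD62L-high CMPs (adjusted p = 0.047) and 3.67 ± 0.50 from CD62L-low CMPs (adjusted p = 0.000881), or 1.06 and 2.95 without replicate 2, its highest library, and the call was lost without any 1 CD62L-high CMP library or CD62L-low CMP replicate 2 or 3. CD62L-high CMPs were thus the lowest group for Cxcl2 and CD62L-low CMPs the lowest for Ccl4.

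Of 18 genes tested in the list of NF-kappaB and cytokine response genes, 5 were higher than both fractions (Ccl4, Cxcl2, Nfkbiz, Relb and Tnf), against 0.296% of all genes, and 5 were without replicate 2, against 0.278%. None was lower with edgeR, at an unadjusted p under 0.05 (0 genes) or with DESeq2 (0 genes). Against CD62L-high CMPs 9 were higher (2.82% of all genes) and against CD62L-low CMPs 10 (3.84%), with median log2 differences of 1.42 and 1.29. The summed level was 1840, 1990 and 1850 CPM in bulk CMPs, 673 to 815 CPM in CD62L-high CMPs and 900 to 1030 CPM in CD62L-low CMPs, with no overlap. Tnfaip3, encoding the inhibitor A20, had 458, 379 and 474 CPM in bulk CMPs, 53.6 to 56.6 CPM in CD62L-high CMPs and 319 to 374 CPM in CD62L-low CMPs. Its differences were 3 ± 0.17 from CD62L-high CMPs (adjusted p = 1.55e-06) and 0.34 ± 0.15 from CD62L-low CMPs (adjusted p = 0.226), so it passed against CD62L-high CMPs and not against CD62L-low CMPs. Nfkbia, encoding IkappaB alpha, had 280, 121 and 277 CPM in bulk CMPs, 56.8 to 64.5 CPM in CD62L-high CMPs and 158 to 219 CPM in CD62L-low CMPs and likewise passed against CD62L-high CMPs only (adjusted p = 0.00233 and 0.617).

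Promoters of 4 higher genes in which a searched motif was found are shown, so that the letters can be read beside the levels. RefSeq promoters (GRCm38.p6, 250 bases before to 50 after a start) were matched by symbol for 26 of the 38 genes, giving 37 promoters. The NF-kappaB site (GGGA and TTCC with 2 bases between), the cyclic AMP response element TGACGTCA, the AP-1 site TGANTCA, the CArG box of serum response factor and the sequence TATAAA were searched on both strands, and were chosen after the values were seen. The NF-kappaB site was in 1 of the 37 promoters (1.47% of all 32851 promoters), the cyclic AMP response element in 1 (1.79%), the AP-1 site in 1 (7.81%), TATAAA in 2 (13.6%) and the CArG box in 2 (1.63%). Capitals mark the matches. In Cxcl2 a pair of NF-kappaB matches overlap on opposite strands, and in Dusp5 a pair of CArG boxes adjoin.
Cxcl2, NF-kappaB site, chr5:90903649-90903948, plus strand: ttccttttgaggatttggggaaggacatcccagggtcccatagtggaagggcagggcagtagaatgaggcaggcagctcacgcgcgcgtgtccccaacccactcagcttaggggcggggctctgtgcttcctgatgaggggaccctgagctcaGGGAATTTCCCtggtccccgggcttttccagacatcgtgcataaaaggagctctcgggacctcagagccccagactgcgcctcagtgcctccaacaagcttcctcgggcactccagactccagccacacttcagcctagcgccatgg
Dusp5, CArG boxes, chr19:53528895-53529194, plus strand: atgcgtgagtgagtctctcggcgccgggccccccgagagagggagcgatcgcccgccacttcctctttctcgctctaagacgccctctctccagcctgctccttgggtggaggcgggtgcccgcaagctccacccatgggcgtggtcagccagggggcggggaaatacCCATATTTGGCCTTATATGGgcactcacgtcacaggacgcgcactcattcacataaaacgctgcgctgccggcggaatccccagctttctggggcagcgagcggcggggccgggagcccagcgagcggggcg
Zfp36, CArG box, chr7:28379179-28379478, minus strand: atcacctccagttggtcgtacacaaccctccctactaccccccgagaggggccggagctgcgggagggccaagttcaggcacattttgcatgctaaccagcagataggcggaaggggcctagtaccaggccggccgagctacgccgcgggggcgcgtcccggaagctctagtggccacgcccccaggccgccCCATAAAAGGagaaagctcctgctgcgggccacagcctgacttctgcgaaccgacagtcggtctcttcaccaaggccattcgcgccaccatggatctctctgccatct
Arl5b, cyclic AMP response element, chr2:15055070-15055369, plus strand: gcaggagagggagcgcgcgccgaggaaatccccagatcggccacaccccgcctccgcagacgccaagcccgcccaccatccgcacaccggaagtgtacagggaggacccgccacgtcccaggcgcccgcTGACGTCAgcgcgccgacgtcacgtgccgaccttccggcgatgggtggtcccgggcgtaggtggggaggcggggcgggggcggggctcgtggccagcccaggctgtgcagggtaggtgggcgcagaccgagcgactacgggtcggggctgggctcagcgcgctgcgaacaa
A match describes these letters and says nothing of binding.

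Of 14 p53 target genes tested, Cdkn1a and Bbc3 were called higher than both fractions, against 0.296% of all genes. Cdkn1a (chr17:29090976-29100727, plus strand), which encodes the cyclin-dependent kinase inhibitor p21, had 66.6, 79 and 60 CPM in bulk CMPs, against 23.7, 36.3 and 27.3 CPM in CD62L-high CMPs and 19.5, 20.3 and 14.1 CPM in CD62L-low CMPs. Its differences were 1.23 ± 0.21 from CD62L-high CMPs (adjusted p = 0.00603) and 1.93 ± 0.22 from CD62L-low CMPs (adjusted p = 0.000386). Bbc3, encoding the BH3-only protein PUMA, had 25.8, 41.8 and 21.4 CPM in bulk CMPs, against 5.87, 5.13 and 5.37 CPM in CD62L-high CMPs and 9.52, 12.9 and 12.4 CPM in CD62L-low CMPs. Its differences were 2.43 ± 0.29 from CD62L-high CMPs (adjusted p = 0.000559) and 1.34 ± 0.28 from CD62L-low CMPs (adjusted p = 0.013), and the call was lost without CD62L-low CMP replicate 1 or 3. The median log2 differences of the 14 targets were 0.42 from CD62L-high CMPs and -0.12 from CD62L-low CMPs. Bbc3 was also the 1 gene called of 11 genes of the BCL2 family, against 0.296% of all genes. The medians of this family were -0.31 and 0.51. Mdm2, encoding the p53 inhibitor, had 70.4, 65.1 and 75.7 CPM in bulk CMPs, 52.8 to 58.9 CPM in CD62L-high CMPs and 51 to 54.7 CPM in CD62L-low CMPs and passed neither test (adjusted p = 0.232 and 0.108).

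Pde4b, Zbtb10 and Rnf19b, which kept their call under the 17 settings, and Skil have separate roles. These 4 were named after their values were seen. Pde4b (chr4:102087543-102607259, plus strand), encoding a phosphodiesterase that degrades cyclic AMP, had 291, 271 and 279 CPM in bulk CMPs, against 85.4, 120 and 137 CPM in CD62L-high CMPs and 90.9, 135 and 120 CPM in CD62L-low CMPs. Its differences were 1.30 ± 0.21 from CD62L-high CMPs (adjusted p = 0.00337) and 1.28 ± 0.21 from CD62L-low CMPs (adjusted p = 0.00269). The zinc finger gene Zbtb10 (chr3:9250602-9285333, plus strand) had 82.8, 89 and 83.3 CPM in bulk CMPs, 17 to 20.9 CPM in CD62L-high CMPs and 23 to 43.7 CPM in CD62L-low CMPs. Rnf19b (chr4:129058271-129085886, plus strand), a ubiquitin ligase gene, had 96.5, 108 and 95.8 CPM in bulk CMPs, 39.1 to 54.4 CPM in CD62L-high CMPs and 35.8 to 41.6 CPM in CD62L-low CMPs. Skil, whose product SnoN restrains TGF-beta signalling, had 124, 122 and 108 CPM in bulk CMPs, 27.1 to 32.4 CPM in CD62L-high CMPs and 44.7 to 66.3 CPM in CD62L-low CMPs, and lost its call only without CD62L-low CMP replicate 1. In all 4 genes the bulk CMP libraries, replicate 2 included, lay close together above the fractions. Vegfa, the gene of the endothelial growth factor, was the 1 gene called of 19 glycolysis and hypoxia genes, against 0.296% of all genes. It had 58.7, 50.2 and 69.8 CPM in bulk CMPs, 14.9 to 32.8 CPM in CD62L-high CMPs and 13.3 to 24.2 CPM in CD62L-low CMPs, and the call was lost without bulk CMP replicate 1 or 3, any 1 CD62L-high CMP library or CD62L-low CMP replicate 1 or 2.

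Cd28 and Osbpl6 had low levels in the fractions. Cd28, a costimulatory receptor of T cells, had 9.64, 28.1 and 10.1 CPM in bulk CMPs, against 2.74, 3.31 and 4.27 CPM in CD62L-high CMPs and 1.08, 0.256 and 0.679 CPM in CD62L-low CMPs. Its differences were 2.18 ± 0.51 from CD62L-high CMPs (adjusted p = 0.0305) and 4.50 ± 0.61 from CD62L-low CMPs (adjusted p = 0.000884), or 1.52 and 3.84 without replicate 2, its highest library, and the call was lost without any 1 CD62L-high CMP library or CD62L-low CMP replicate 3. Of the T cell markers, Cd3d, Cd3e, Cd3g, Cd8a, Cd8b1, Trac and Trbc2 had 0 counts over the bulk CMP libraries, whereas Cd4 had 37, Thy1 14, Cd5 9, Prf1 8 and Trbc1 4. The part of such cells in the level of Cd28 was not tested. The summed list of 16 T and NK cell genes had 27.3, 9.69 and 31.6 CPM in bulk CMPs, 2.5 to 4.64 CPM in CD62L-high CMPs and 14.2 to 24.8 CPM in CD62L-low CMPs, most of it from Gzmb with 406 counts in bulk CMPs. Osbpl6, an oxysterol-binding protein gene named after its values were seen, had 4.95, 4.54 and 5.58 CPM in bulk CMPs, against 0.469, 0.0625 and 0 CPM in CD62L-high CMPs and 0, 0 and 0 CPM in CD62L-low CMPs. Its 95 counts in bulk CMPs against 0 in CD62L-low CMPs give a ratio of 40.2 at a floor of 3 counts over the group, and the 95% counting interval of the ratio starts at 32.1. Its call was lost without bulk CMP replicate 1 or 3 or CD62L-high CMP replicate 2 or 3.

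The genes lower than both fractions were Ccnb1, Kpna2, F10 and the gene model Gm11335. Ccnb1 (chr13:100778650-100786570, minus strand), encoding the mitotic cyclin B1, had 16.3, 16.6 and 11.9 CPM in bulk CMPs, against 34.7, 39.8 and 45.1 CPM in CD62L-high CMPs and 27.5, 33.7 and 44.8 CPM in CD62L-low CMPs. Its differences were -1.42 ± 0.23 from CD62L-high CMPs (adjusted p = 0.00402) and -1.25 ± 0.23 from CD62L-low CMPs (adjusted p = 0.0064). The other 3 were named after their values were seen. Kpna2, an importin alpha gene, had 19.4, 9.99 and 29.4 CPM in bulk CMPs, 59.3 to 68 CPM in CD62L-high CMPs and 42.5 to 47 CPM in CD62L-low CMPs, and lost its call without bulk CMP replicate 1 or 2, CD62L-high CMP replicate 2 or any 1 CD62L-low CMP library. F10, encoding coagulation factor X, had 1.2, 1.51 and 1.69 CPM in bulk CMPs, against 8.84, 5.5 and 4.09 CPM in CD62L-high CMPs and 6.99, 7.82 and 10.1 CPM in CD62L-low CMPs. Its differences were -2.06 ± 0.44 from CD62L-high CMPs (adjusted p = 0.0201) and -2.49 ± 0.45 from CD62L-low CMPs (adjusted p = 0.00504), and the call was lost without bulk CMP replicate 1 or CD62L-high CMP replicate 1 or 2. Gm11335 had 2 counts over the bulk CMP libraries, a ratio of 0.0828 to CD62L-high CMPs (95% counting interval 0.0098 to 0.313) and of 0.0705 to CD62L-low CMPs (0.00822 to 0.274), and its call was lost without any 1 library. Intervals and floors cover counting error only.

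Genes of G2 and mitosis mostly lay low in bulk CMPs, though few passed the test. Of 20 tested, Ccnb1 was lower than both fractions, against 0.0312% of all genes. Against CD62L-high CMPs 4 were lower (0.538% of all genes), and against CD62L-low CMPs 1 (1.84%). Median log2 differences were -0.93 and -0.47, or -0.65 and -0.3 without replicate 2. Kif23 and Bub1 went the other way against CD62L-low CMPs, at 0.62 ± 0.36 (adjusted p = 0.356) and 0.27 ± 0.25 (adjusted p = 0.573). Without replicate 2 these differences were 1 (adjusted p = 0.000196) and 0.48 (adjusted p = 0.121). All bulk CMP libraries lay below all fraction libraries for 10 of the 20, against 2.88% of all genes tested, and for 11 without replicate 2, against 5.31%. Mki67, the proliferation marker, had 671, 181 and 700 CPM in bulk CMPs, 977 to 1070 CPM in CD62L-high CMPs and 801 to 1050 CPM in CD62L-low CMPs, with differences of -0.99 ± 0.37 from CD62L-high CMPs (adjusted p = 0.165) and -0.83 ± 0.37 from CD62L-low CMPs (adjusted p = 0.222). Without replicate 2 they were -0.58 and -0.43, with adjusted p-values of 0.00164 and 0.0131 and a fold under 2. The summed level was 2000, 838 and 2010 CPM in bulk CMPs, 2960 to 3150 CPM in CD62L-high CMPs and 2180 to 2700 CPM in CD62L-low CMPs, and replicate 2 was the lowest library. The 20 S phase genes had median differences of -0.36 and 0.01 and a summed level of 3190, 2000 and 3290 CPM in bulk CMPs, 3450 to 3640 CPM in CD62L-high CMPs and 2780 to 2980 CPM in CD62L-low CMPs.

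Leaving out replicate 2 brought in 11 higher genes, of which 8 had also been tested with all libraries: Klf10, Nfkbie, Hspa1a, Hspa1b, Gadd45b, Id3, Clec4e and Gimap6. They were named after their values were seen. CPM in this paragraph were scaled over the libraries without replicate 2, so they do not compare directly with those above. Klf10, an early TGF-beta response gene, had 126 and 113 CPM in bulk CMPs, 29.7 to 36 CPM in CD62L-high CMPs and 52.5 to 63.4 CPM in CD62L-low CMPs without replicate 2, with log2 differences of 1.87 ± 0.14 (adjusted p = 1.89e-08) and 1.03 ± 0.14 (adjusted p = 3.54e-05). Nfkbie, an IkappaB gene, had 42.3 and 53.8 CPM in bulk CMPs, 17.3 to 24 CPM in CD62L-high CMPs and 21.4 to 25.8 CPM in CD62L-low CMPs. Hspa1a and Hspa1b encode inducible heat shock proteins and are near-identical copies, so that their reads may be split between them. Hspa1b had 12.5 and 6.87 CPM in bulk CMPs, 1.6 to 2.3 CPM in CD62L-high CMPs and 0.552 to 2.76 CPM in CD62L-low CMPs. Gadd45b, a growth arrest and stress gene, had 28.1 and 13 CPM in bulk CMPs, 2.94 to 8.01 CPM in CD62L-high CMPs and 2.93 to 10.6 CPM in CD62L-low CMPs.

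Erythroid and monocyte genes did not lie beyond the fractions. Of 20 erythroid genes tested, 15 were higher in bulk CMPs than in CD62L-high CMPs (2.82% of all genes). Against CD62L-low CMPs 12 were lower (1.84% of all genes), and the median log2 differences were 2.84 and -1.89. Their summed level was 583, 792 and 608 CPM in bulk CMPs, 178 to 201 CPM in CD62L-high CMPs and 1510 to 1750 CPM in CD62L-low CMPs. Of 16 monocyte genes, 7 were lower in bulk CMPs than in CD62L-high CMPs (0.538% of all genes). Against CD62L-low CMPs 13 were higher (3.84% of all genes), and the medians were -1.33 and 3.75. Their summed level was 1100, 856 and 1070 CPM in bulk CMPs, 2270 to 2810 CPM in CD62L-high CMPs and 78.1 to 153 CPM in CD62L-low CMPs. No erythroid or monocyte gene was beyond both fractions with edgeR (0 genes), at an unadjusted p under 0.05 (0 genes) or with DESeq2 (0 genes). At the unadjusted p the megakaryocyte gene Selp and, of the lineage transcription factors, Runx1 were higher than both fractions, and for 3 of 30 such factors (10%) all bulk CMP libraries lay above all fraction libraries, against 3.49% of all genes. Of 35 lists, 6 held a gene beyond both fractions and 29 held none, though libraries of some of the 29 still separated. For 5 of 18 ER folding and ATF4 response genes all bulk CMP libraries lay above all fraction libraries (3.49% of all genes). Without replicate 2 the number was 7 (6.42% of all genes). At the unadjusted p 4 of the 18 were higher than both fractions (2.65% of all genes): Atf4, Dnajb9, Herpud1 and Sesn2. All bulk CMP libraries lay below all fraction libraries for 4 of 60 histone genes (2.88% of all genes). Without replicate 2 the number was 25 (5.31% of all genes). For 2 of 15 heat shock genes they lay above, and for 7 without replicate 2 (6.42% of all genes).

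Where the fractions differed most, bulk CMPs were not at 1 point between them. Position was computed on the CPM scale, 0 at the mean of CD62L-low CMPs and 1 at that of CD62L-high CMPs, for genes called between the fractions with a fold over 4 and at least 10 CPM in the higher one. Over 225 genes higher in CD62L-high CMPs the median position of bulk CMPs was 0.496 (quartiles 0.379 and 0.657), and 18 genes lay above 1. Over 208 genes lower in CD62L-high CMPs it was 0.707 (quartiles 0.597 and 0.797), and 7 lay below 0. By library the medians were 0.436 to 0.504 for the first set and 0.698 to 0.728 for the second. Without replicate 2 they were 0.487 and 0.717. A mixture of these 2 fractions in a fixed RNA share would give both sets the same position. The gate also holds cells of intermediate CD62L, whose levels are unknown, and the genes were chosen on the fraction libraries that set the scale. The cause of the 2 positions was not tested.

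A like comparison was made in GMPs, the CD16/32+ progenitors that follow CMPs, with 3 libraries each of bulk GMPs, CD62L-high GMPs and CD62L-neg GMPs. They share no library with the CMPs. The paper divided CMPs into 3 parts by CD62L, whereas its CD62L-neg and CD62L-high GMPs were small parts at the ends of the range. Most bulk GMPs thus lie outside both fractions, so counts and shared genes do not compare directly between the gates. Bulk GMPs were higher than both fractions in 7 of 13244 genes tested (0.0529%) and lower in 6 (0.0453%). Atf3, Osbpl6, Pde4b and Socs3 were also among the 38 CMP genes, which is 10.5% of the higher CMP genes and 57.1% of the higher GMP genes. GMPs were also sorted into a CD62L-low fraction of 3 libraries, and in a fit of these 12 libraries bulk GMPs were higher than all 3 fractions in 2 genes and lower in 3. Of the shared genes Pde4b alone was then called, with 1.22 ± 0.20 from CD62L-low GMPs (adjusted p = 0.00664), whereas Atf3 had 0.98 ± 0.22 (adjusted p = 0.0698), Osbpl6 an adjusted p of 0.061 and Socs3 one of 0.677. Without bulk CMP replicate 2 the shared genes were 6, with Hspa1a and Hspa1b added, or 16.2% and 85.7% of the higher genes. Lower genes shared were 0 with all libraries and 2 without replicate 2, the small nucleolar RNA genes Snord15a and Gm25835, or 18.2% of the CMP and 33.3% of the GMP genes. Of the 38 genes, 37 were tested in GMPs, and 27 (73.0%) had log2 differences above 0 from both GMP fractions, against 25.4% of all genes tested. By the test 11 were higher than CD62L-high GMPs (1.71% of all genes) and 12 higher than CD62L-neg GMPs (2.59%). None of the 37 was called lower than CD62L-high GMPs (0.574% of all genes) or than CD62L-neg GMPs (1.9%).

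Atf3 had 62.7, 59.8 and 69.1 CPM in bulk GMPs, against 20.2, 30.2 and 32.6 CPM in CD62L-high GMPs and 10.7, 9.26 and 7.27 CPM in CD62L-neg GMPs. Its differences were 1.20 ± 0.19 from CD62L-high GMPs (adjusted p = 0.00238) and 2.81 ± 0.21 from CD62L-neg GMPs (adjusted p = 8.65e-07). Pde4b had 72.9, 68.8 and 71.4 CPM in bulk GMPs, against 18.6, 38.2 and 34.3 CPM in CD62L-high GMPs and 32.1, 29.5 and 23.9 CPM in CD62L-neg GMPs. Its differences were 1.22 ± 0.22 from CD62L-high GMPs (adjusted p = 0.00444) and 1.32 ± 0.22 from CD62L-neg GMPs (adjusted p = 0.0014). Socs3 was low in all GMPs, with 5.6, 3.39 and 5.04 CPM in bulk GMPs, against 1.28, 0.672 and 1.35 CPM in CD62L-high GMPs and 1.14, 0.871 and 1.28 CPM in CD62L-neg GMPs. Bulk GMPs did not overlap either fraction for these 3 genes. Cxcl2 had 9.31, 6.78 and 8.17 CPM in bulk GMPs, against 0.958, 0.224 and 0.74 CPM in CD62L-high GMPs and 9.37, 11.2 and 8.06 CPM in CD62L-neg GMPs, so that bulk GMPs exceeded CD62L-high GMPs and overlapped CD62L-neg GMPs.

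**Figure D4:**
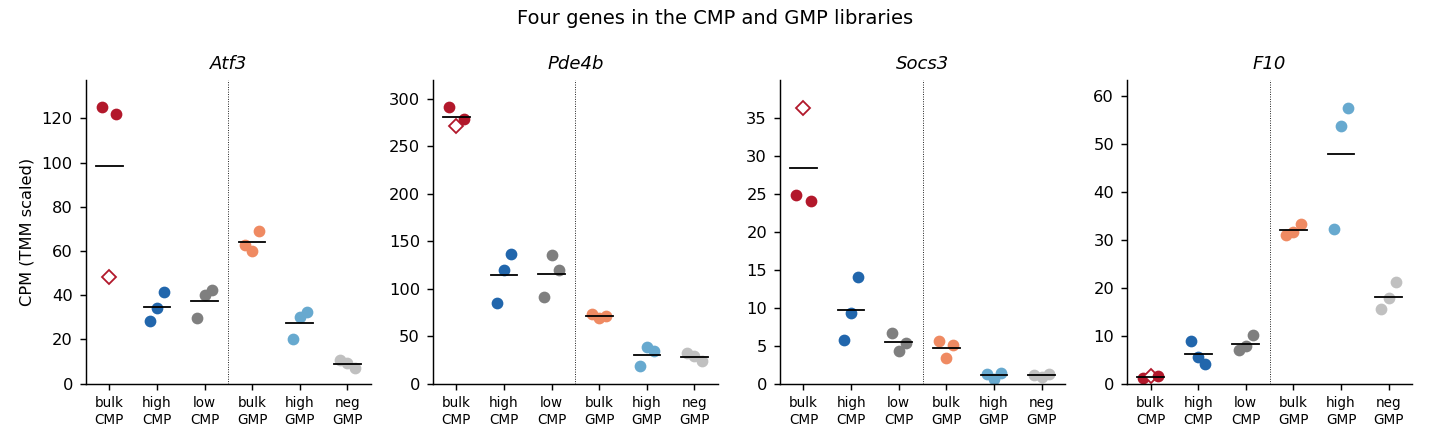
CPM of Atf3, Pde4b, Socs3 and F10 in each library, CMPs left of the dotted line and GMPs right of it, each in the order bulk, CD62L-high, CD62L-low or CD62L-neg. Points are libraries and bars are means of 3. CMPs and GMPs were scaled separately, so levels compare within each side. Bulk cells are highest on both sides for Atf3, Pde4b and Socs3, and F10 is lowest in bulk CMPs, with 1.20 to 1.69 CPM.

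Whether bulk cells stood off the mean of their fractions differently in CMPs and in GMPs was tested over 18 libraries. The fractions themselves were cut differently in CMPs and in GMPs. Of 14632 genes, the difference was called higher in CMPs for 2 (0.0137%) and lower for 4 (0.0273%). F10 was the gene among them that lay beyond both CMP fractions: bulk CMPs stood at -2.28 on the log2 scale from their fractions and bulk GMPs at 0.13 from theirs, a difference of -2.41 ± 0.39 (adjusted p = 0.0249), and -2.40 without bulk CMP replicate 2 (adjusted p = 0.0493). No gene was called lower without bulk CMP replicate 1, bulk GMP replicate 1 or 2, CD62L-high GMP replicate 3 or CD62L-neg GMP replicate 1 (0 genes each with edgeR), so the call of F10 was lost there. It was also lost with a replicate block. None of the 38 higher genes passed this test, which does not show that they behaved alike in both gates. For Atf3 the difference was -0.56 ± 0.33 (adjusted p = 0.55) and for Nr4a3 1.08 ± 0.47 (adjusted p = 0.42).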

How the data were processed

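RNA from sorted mouse bone marrow progenitors was sequenced by the submitters, and the deposited table holds raw counts of reads per gene, made by the authors with Trim Galore, HISAT2 and HTSeq on mm10 per the submitters' processing notes and without normalization. Versions and the strand setting of the counting are not given in the sources used here, so overlapping antisense genes cannot be told apart. The paper and the labels name different library kits.

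Of 47643 identifiers, 47224 were named from GENCODE M21. The 9 CMP libraries (6145834 to 14650082 counts) were fitted with edgeR 4.0.16 (R 4.3.3; filterByExpr, trimmed-mean scaling, quasi-likelihood test, Benjamini-Hochberg adjustment over all genes tested), and GMPs in a fit of their own. A call required both a fold change over 2 and adjusted p under 0.05. The paper used DESeq2, which was run as an alternative (1.42.0), as was limma 3.58.1. The code was tested on simulated data.

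Named by rule were genes of the sort (1 is not reported here), up to 12 genes a direction with the largest smaller difference that also held without bulk CMP replicate 2, with at least 10 CPM and no overlap between libraries, and up to 6 called members of each list. Members and lists were chosen with earlier results of these data known.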

Additional observations from a re-analysis of the deposited data

Results flagged for a closer look

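F10, encoding coagulation factor X, differed between CMPs and GMPs in the distance of bulk cells from the mean of their fractions, by -2.41 ± 0.39 on the log2 scale (edgeR quasi-likelihood test, adjusted p = 0.0249). It had 1.20, 1.51 and 1.69 CPM in bulk CMPs, 4.09 to 8.84 CPM in CD62L-high CMPs and 6.99 to 10.1 CPM in CD62L-low CMPs. In GMPs, scaled separately, it had 31.0, 31.7 and 33.3 CPM in bulk GMPs, 32.3, 53.7 and 57.5 CPM in CD62L-high GMPs and 15.5, 17.8 and 21.1 CPM in CD62L-neg GMPs. The bulk libraries lay below both fractions in CMPs, whereas in GMPs they lay above CD62L-neg GMPs and overlapped CD62L-high GMPs. The call was lost without bulk CMP replicate 1, bulk GMP replicate 1 or 2, CD62L-high GMP replicate 3 or CD62L-neg GMP replicate 1. It was also lost with a replicate block. The fractions were cut differently in CMPs and in GMPs, and the cause was not tested.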

How the results depend on the processing

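Genes higher and lower than both CMP fractions numbered 38 and 4, and 74 and 15 with DESeq2, 116 and 12 without a filter on low counts, and 6 and 0 when tested against a fold of 1.5. Adjusting the larger p once gave 11 and 1, and the adjusted p alone 59 higher genes. Lower genes numbered 8 with limma voom, 12 with bulk GMPs added, 18 with all 21 libraries and 21 with DESeq2 without bulk CMP replicate 2, a setting added after seeing the data. Against CD62L-high CMPs, DESeq2 gave 612 higher and 169 lower genes, no filter 635 and 219, and the fold of 1.5 gave 196 and 9. Lower genes there numbered 184 with voom, 133 with bulk GMPs added, 174 with all 21 libraries, 141 by adjusted p alone and 184 with DESeq2 without replicate 2. Against CD62L-low CMPs, lower genes numbered 372 with DESeq2, 371 with voom and 402 with DESeq2 without replicate 2, and the fold of 1.5 gave 294 higher and 101 lower.

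Leaving out 1 library gave 16 (without CD62L-low CMP replicate 3) to 48 (without bulk CMP replicate 3) higher genes and 1 (without CD62L-high CMP replicate 2) to 13 (without bulk CMP replicate 1) lower genes. The ranges were 213 to 442 higher and 21 to 143 lower against CD62L-high CMPs, and 294 to 560 and 106 to 328 against CD62L-low CMPs. Positions ran from 0.469 to 0.515 and from 0.692 to 0.717, and genes with a fold over 2 gave 0.646 for the second set. In GMPs the ranges were 4 to 9 higher and 2 to 10 lower, with 15 lower by DESeq2, 11 and 18 without a filter, 14 higher by adjusted p alone, and 2 and 3 beyond all 3 GMP fractions. The difference between CMPs and GMPs gave 0 to 27 and 0 to 6 genes, 71 and 19 with DESeq2 and 196 and 55 without a filter.

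Same-numbered libraries did not deviate together (r of -0.037 to 0.0634 over 9 pairs, against -0.0492 to 0.0632 over 18 others). With so few libraries a group this cannot exclude that the numbers pair samples, and no source says whether they do. A replicate block left 30 higher genes, 27 of them among the 38, and 2 lower, and 1 and 0 genes for the difference between CMPs and GMPs. For single genes 1194 values kept their side of the threshold, 210 lost the call, 2 gained one and 0 reversed. Depth of coding counts limits bulk CMP replicate 2, and low genes such as Osbpl6 and Gm11335 rest on few counts. The cause of these shifts was not tested.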
